A study of Mus musculus with 6 samples.

Results

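Interferon response genes are genes whose transcription rises when a cell senses interferon or foreign nucleic acid. A fixed list of 34 of them was read from Drop-seq tables of mouse spinal cord, and all 34 were among the 17042 genes listed in every table. Drop-seq captures single cells in droplets and counts transcripts as unique molecular identifiers (UMIs), so that 1 UMI stands for 1 captured molecule whatever the length of the gene. The 6 libraries form 3 groups of 2: wild-type mice given vehicle (WT-Veh), SOD1-G93A mice given vehicle (SOD1-Veh) and SOD1-G93A mice given Necrostatin-1s (SOD1-Nec). SOD1-G93A mice carry a mutant human superoxide dismutase transgene and are a model of amyotrophic lateral sclerosis, and Necrostatin-1s is an inhibitor of the kinase RIPK1. There was no wild-type group given Necrostatin-1s. The labels give neither the age of the mice nor whether 2 libraries of a group came from separate animals, so p-values measure the spread between libraries, which may be technical. Cells were freed with Accutase and passed through a density gradient, and what follows covers only cells that came through it.

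Interferons signal through cell-surface receptors to Janus kinases and STAT proteins. Type I interferon leads to a complex that includes STAT2 and IRF9 and binds the interferon-stimulated response element, while interferon gamma acts through the gamma-activated site. The induced genes include nucleic acid sensors, enzymes and membrane proteins that hinder viral growth, and transcription factors that extend the response. In the central nervous system, microglia are known for interferon-responsive states in ageing and neurodegeneration.

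Promoter sequences are shown for 4 of the genes because their windows hold letters that match the elements named above, and because 3 of the 4 (Isg15, Rsad2 and Irf1) recur in the results. The letters come from RefSeq promoters on build GRCm38.p6, on the strand of the gene, 5′ to 3′. Capitals mark each match to the core of the interferon-stimulated response element (GAAA, 2 bases of any kind, GAAA) or, for Irf1, of the gamma-activated site (TTCNNNGAA), on either strand; overlapping matches were joined. All windows lie upstream of the annotated start.
Isg15 (chr4:156200855-156200916, minus strand): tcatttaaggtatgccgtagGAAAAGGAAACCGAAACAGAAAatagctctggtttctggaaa
Rsad2 (chr12:26456543-26456592, minus strand): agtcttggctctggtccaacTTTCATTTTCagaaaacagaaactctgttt
Ifit1 (chr19:34640765-34640833, plus strand): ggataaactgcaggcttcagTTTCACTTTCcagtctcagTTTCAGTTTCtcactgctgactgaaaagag
Irf1 (chr11:53769904-53769952, plus strand): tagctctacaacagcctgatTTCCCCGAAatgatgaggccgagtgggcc
Isg15 has 3 overlapping matches between 78 and 57 bases upstream of its start, Ifit1 has 2, and Rsad2 and Irf1 have 1 each. RefSeq promoters of 300 bases, from 250 bases before to 50 after the start, were matched for 26 of the 34 genes. The core of the response element was found in 14 of these 26 genes and in 3.99% of all 27025 genes of the promoter table. TTCNNNGAA was found in 8 of the 26 and in 9.55% of all genes in the table. Bst2, Ifitm3 and Oas1a held both. A match describes letters in this window and is neither a binding site nor a cause of any level given below.

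A barcode was kept when it had 200 genes or more and no more than 20% mitochondrial UMIs. Removal of 29 called doublets left 3331 cells, between 395 and 791 per library. The depth over all barcodes lay between 1508618 and 1767205 UMIs per library. The share of barcodes of 200 genes or more that exceeded the mitochondrial limit was 31.3% and 31.6% for WT-Veh, 40.9% and 33.3% for SOD1-Veh, and 25.1% and 19.1% for SOD1-Nec. Sod1, the gene of the transgene, stood at 2.48 and 1.79 UMIs per 10000 in the WT-Veh cells and between 38.2 and 55.5 in those of the 4 SOD1-G93A libraries, which fits the labels; how reads of the human transgene were mapped was not given. Clustering without the interferon genes gave 16 classes named from marker genes. Beside 637 microglia, and against the tissue label, many cells were blood or marrow types: 486 B cells, 483 erythroid cells, 411 neutrophils and 292 monocytes. Neurons numbered 255 (163 of them in WT-Veh 2), oligodendrocytes 209 and astrocytes 115. Skeletal muscle cells occurred only for SOD1-Veh, with 16 and 47 cells.

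The 34 genes together gave 8445 UMIs, or 0.269% of all UMIs in retained cells, and most of the list was close to the limit of detection. Ly6e, Ifitm3, Ifitm6 and Rsad2 alone held 60.3% of these UMIs, whereas 20 genes had fewer than 100 UMIs each over the 6 libraries and together gave 732. The genes most often used as a sign of a type I response were among the rarest. Ifit1 had 16 UMIs, Ifit2 18, Ifit3 28, Oasl1 8, Oasl2 18, Usp18 18, Mx1 23 and Ifi44 4. The other scarce members were Zbp1 (29), Ddx58 (30), Gbp2 (31), Rtp4 (33), Oas1a (38), Irf7 (47), Ifih1 (52), Ifitm1 (60), Ifi204 (60), Parp14 (66), Stat2 (73) and Xaf1 (80).

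The members fell into distinct cell types rather than one. Monocytes held 24.4% of member UMIs while making up 8.77% of cells, and neutrophils (16.0%), microglia (16.0%), erythroid cells (15.4%) and B cells (11.5%) held most of the rest. The summed level of the list was 92.4 UMIs per 10000 in monocytes, ranging from 75.9 to 118 over the libraries, and 84.4 in the 29 dendritic cells, ranging from 40.4 to 163. The ranges of these 2 classes overlapped. Next came neutrophils (35.9, range 25.2 to 46.9), endothelial cells (34.8, range 23.4 to 43.7), T or NK cells (32.5, range 10.5 to 57.2), B cells (31.6, range 29.1 to 37.9), myeloid progenitors (30.9, range 20.7 to 41.1), ependymal cells (27.7, range 0 to 32.3) and microglia (26.8, range 20.8 to 34.1). The ranges of these 7 classes overlapped with each other and lay below that of monocytes. Neural cells were among the lowest: 3.69 in neurons, 2.34 in astrocytes and 1.67 in oligodendrocytes. These class levels pool 6 libraries and are given without a test.

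**Figure D1:**
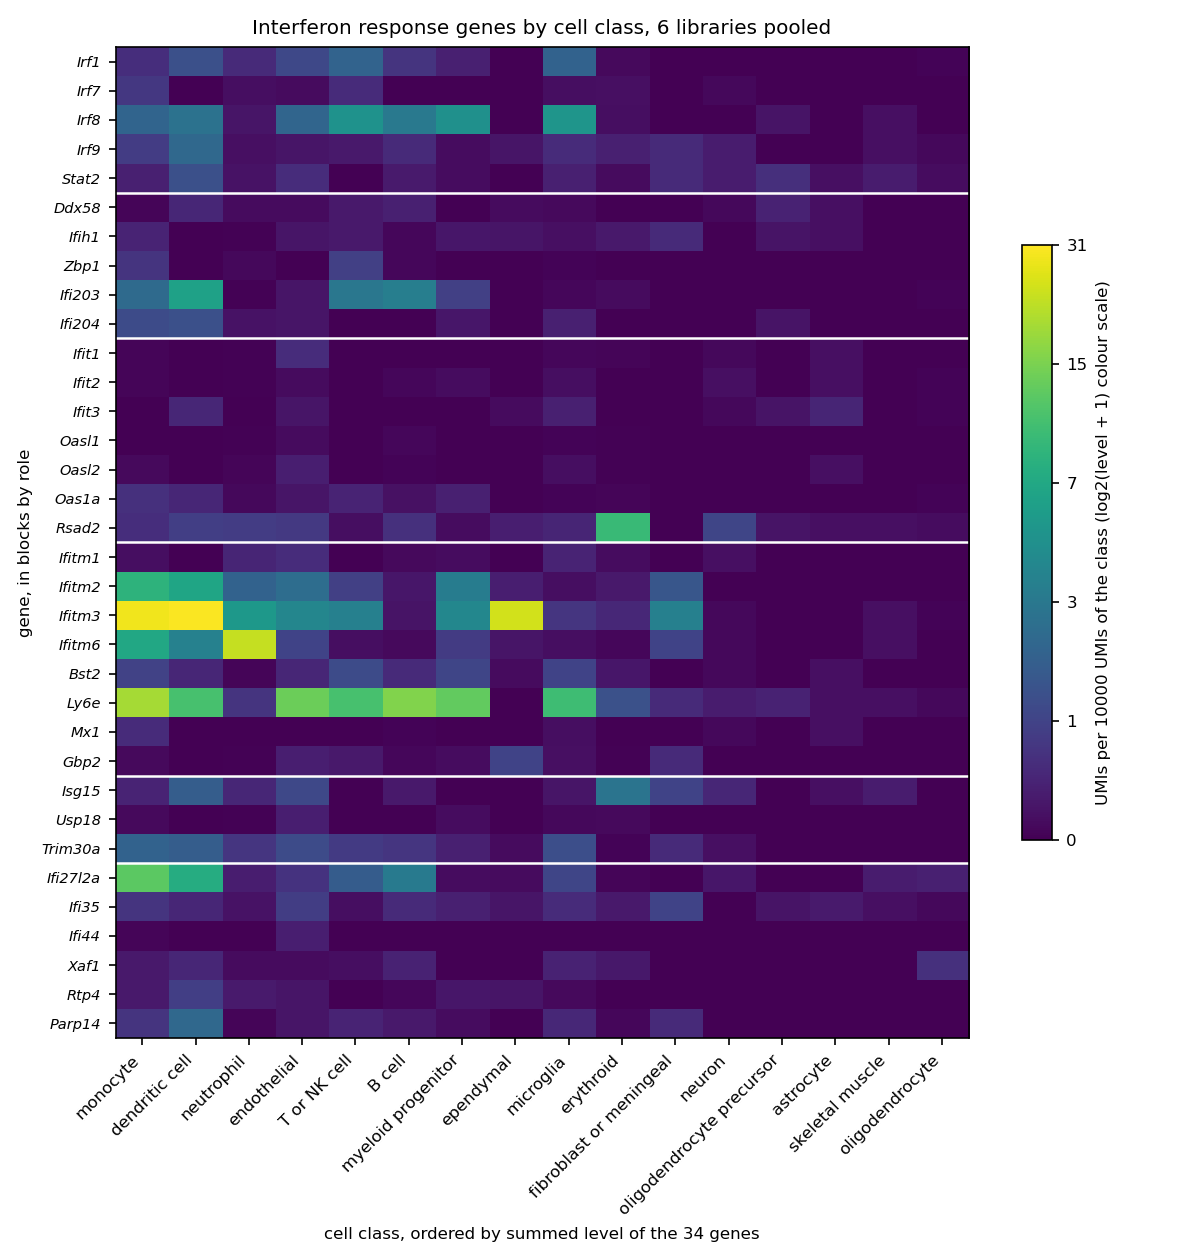
Level of each of the 34 genes (rows, in blocks by role) in each of 16 cell classes (columns, ordered by the summed level), in UMIs per 10000 UMIs of the class with the 6 libraries pooled, on a log2(level + 1) colour scale. Ifitm3 stands out in monocytes, dendritic and ependymal cells, Ifitm6 in neutrophils, and Rsad2 and Isg15 in erythroid cells.

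Among the transcription factors, Irf8, which directs the myeloid lineage, was highest in microglia (5.07 UMIs per 10000, range 3.47 to 6.94), with T or NK cells (4.84, range 1.17 to 7.38) and myeloid progenitors (4.68, range 1.48 to 6.69) not apart from it. Irf1, a factor induced strongly by interferon gamma, had 100 of its 192 UMIs in microglia, where its level was 1.99 (range 0.855 to 4.23), close to the 2.02 of T or NK cells. Irf7, which amplifies type I interferon production, had 47 UMIs in all and was highest in monocytes, at 0.763 per 10000 (range 0.387 to 1.62). Irf9 and Stat2, partners in the type I complex, had 116 and 73 UMIs spread over most classes. Of the sensors, Ifi203, a member of the p200 family of DNA-binding proteins, was found in dendritic cells (6.25), B cells (3.38), T or NK cells (2.96) and monocytes (2.33). Zbp1, a sensor of nucleic acids in the Z form that can engage RIPK3, had 29 UMIs, of which 15 were in monocytes and 7 in T or NK cells.

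The membrane effectors carried most of the signal. Ifitm3, which blocks fusion of viruses with the cell, was at 30.4 per 10000 in dendritic cells, 28.8 in monocytes and 24.3 in ependymal cells, and at 5.31 or less in every other class. Its relative Ifitm6 had 853 of 1055 UMIs in neutrophils, at 22.6 per 10000 with a range of 15.6 to 31.8, which lay above the range of 3.74 to 11.9 in monocytes. Ifitm2 followed Ifitm3 in monocytes (8.43) and dendritic cells (6.70) but was at 0.139 in microglia. Ly6e, a lipid-anchored surface protein of the Ly6 family, was spread widely: 18.9 in monocytes, 15.6 in B cells, 13.8 in endothelial cells and 9.87 in microglia. Ifi27l2a, a small mitochondrial membrane protein, was led by monocytes (12.3).

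Rsad2, the radical enzyme viperin, and Isg15, a ubiquitin-like modifier, did not follow the other inducible genes. Erythroid cells held 723 of 843 Rsad2 UMIs, at 9.40 per 10000, and the next class, neurons, was at 1.06. The lowest erythroid value among the libraries, 4.58, exceeded the highest in any other class, 4.07 in the 3 dendritic cells of SOD1-Veh 1. Isg15 had 214 of 284 UMIs in erythroid cells, at 2.78 per 10000. Rsad2 led the genes of the haemoglobin-rich erythroid cluster by fold over other cells, although it took no part in the clustering. The other 10 genes of the inducible core (Ifit1, Ifit2, Ifit3, Usp18, Oasl1, Oasl2, Oas1a, Irf7, Mx1 and Ifi44) were at 0.429 per 10000 in erythroid cells in sum, against 2.24 in monocytes and 1.13 in microglia.

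Barcodes with fewer than 100 genes were read for free RNA. Haemoglobin chains were at 5398 per 10000 there, ranging from 3006 to 7772 over the libraries. These barcodes may therefore hold red cells as well as free RNA, and the 2 were not separated. Rsad2 was at 3.66 per 10000 there and Isg15 at 0.484, while Ly6e, Ifitm3, Ifitm6, Irf1 and Irf8 were each at 0.222 or less. Relative to haemoglobin-chain UMIs (Hba-a1, Hba-a2, Hbb-bs and Hbb-bt), Rsad2 stood at 1.98 per 1000 in erythroid cells and 0.678 per 1000 in these barcodes, and Isg15 at 0.586 and 0.0897. The haemoglobin-rich cluster had 2.55 Rsad2 UMIs per 1000 haemoglobin UMIs and the other erythroid cluster, led by Hemgn and Car1, had 0.952. Small Rsad2 counts outside erythroid cells may hold free RNA. Its part in them was not tested, because these barcodes do not separate free RNA from red cells.

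The question of the comparisons was whether the list differed between SOD1-G93A and wild-type cords and between treated and untreated SOD1-G93A cords. No member passed the test over all retained cells. Of the 34 genes, 20 had enough counts to be tested, and edgeR's quasi-likelihood test with Benjamini-Hochberg adjustment called 0 of them in each comparison. Over all 7482 genes tested it called 0.829% for SOD1-Veh minus WT-Veh, 0.548% for SOD1-Nec minus SOD1-Veh and 0.0401% for SOD1-Nec minus WT-Veh, so that 0 of 20 members lies close to the background. Unadjusted p-values below 0.05 were found for 2, 2 and 4 members, beside 10.4%, 7.06% and 8.46% of all genes tested. The median log2 fold change of the 20 was -0.17, -0.04 and 0.01, against 0.01, -0.01 and -0.01 over all genes tested, and 8, 8 and 10 of the 20 were positive. DESeq2 also called 0 members in each comparison, and its share over all genes is not given. In tissue-wide sums of this kind, fewer cells of a type and less RNA per cell cannot be told apart.

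**Figure D2:**
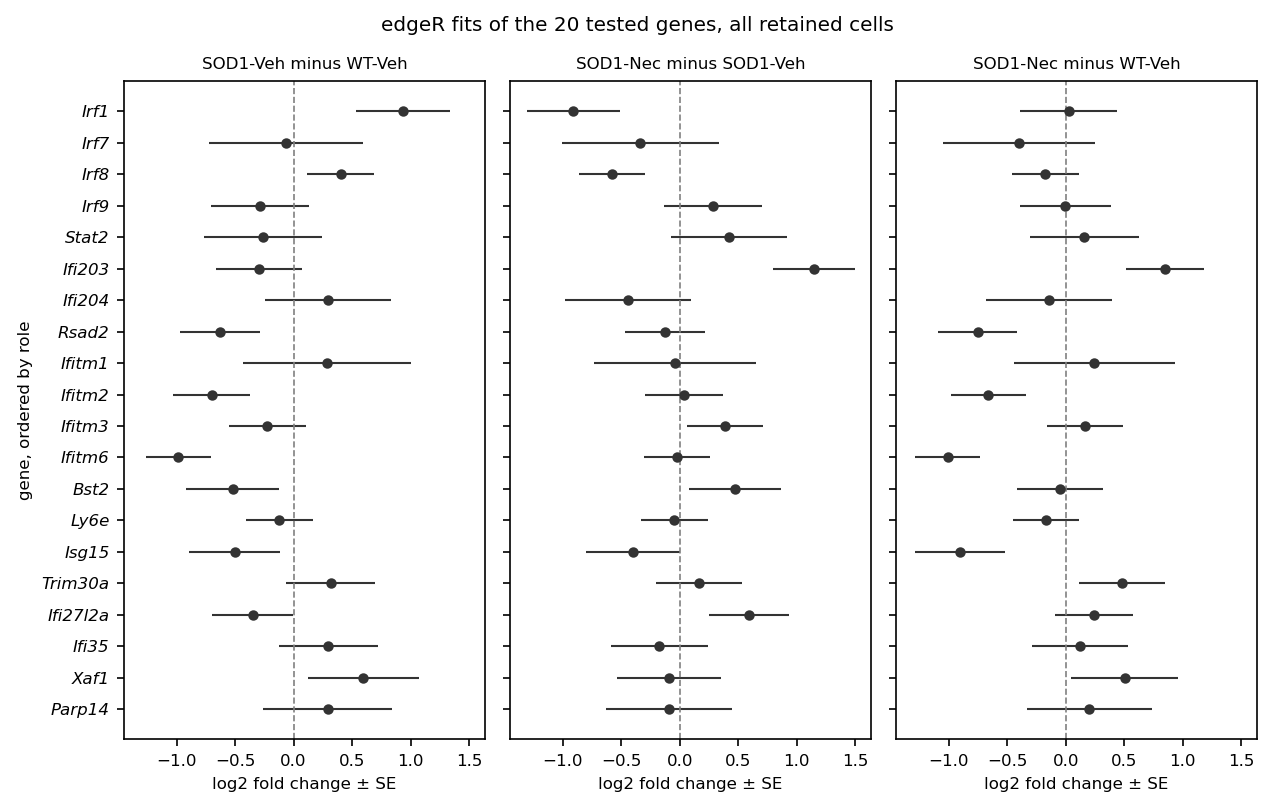
Fitted log2 fold change with its standard error (x axis) for the 20 tested genes (rows, by role) in the 3 comparisons of all retained cells (panels). Ifitm6 lies near -1 in both comparisons with WT-Veh, Irf1 near 0.94 in SOD1-Veh minus WT-Veh and near -0.91 in SOD1-Nec minus SOD1-Veh, and none has an adjusted p below 0.05.

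Over all cells, across the 3 comparisons, the smallest p-values belonged in this order to Ifitm6, Ifi203, Isg15 and Irf1, and none passed after adjustment. Ifitm6 was at 5.64 and 4.45 UMIs per 10000 for WT-Veh, 2.44 and 2.50 for SOD1-Veh, and 2.67 and 2.37 for SOD1-Nec. Both WT-Veh libraries lay above the other 4, with a log2 fold change of -0.98 (SE 0.28) for SOD1-Veh minus WT-Veh and an adjusted p of 0.168 by edgeR's test. Neutrophils, the main source of Ifitm6, were 92 of 508 and 61 of 549 cells for WT-Veh, 51 of 395 and 50 of 430 for SOD1-Veh, and 79 of 658 and 78 of 791 for SOD1-Nec. Irf1 was at 0.521 and 0.457 for WT-Veh, 1.30 and 0.538 for SOD1-Veh, and 0.489 and 0.507 for SOD1-Nec. SOD1-Veh 1 stood apart, and the adjusted p was 0.429 for SOD1-Veh minus WT-Veh and 0.676 for SOD1-Nec minus SOD1-Veh. Ifi203 was at 0.593 and 0.516 for WT-Veh, 0.489 and 0.388 for SOD1-Veh, and 1.19 and 0.830 for SOD1-Nec. The SOD1-Nec libraries were the 2 highest, with a log2 difference of 1.15 (SE 0.35) from SOD1-Veh and an adjusted p of 0.344. B cells, in which it is well expressed, were 10.2% and 6.01% of cells for WT-Veh, 14.7% and 19.3% for SOD1-Veh, and 16.6% and 19.1% for SOD1-Nec. The shares of both SOD1-G93A groups overlapped, and the part of B cells in this difference was not tested.

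The other abundant members did not pass the test over all cells. Some groups did not overlap, but 2 libraries against 2 have only 6 arrangements. The smallest two-sided p of an exact permutation test is then 0.333, so a gap between groups carries little weight anywhere in this report. The share of all genes with such a gap was not counted. Ly6e ranged from 5.07 (SOD1-Nec 1) to 7.35 (WT-Veh 1) per 10000 and the groups overlapped. Ifitm3 ranged from 3.34 (SOD1-Veh 2) to 6.18 (SOD1-Nec 1), and ependymal cells were 2.58% of that highest library and between 0.233% and 2.19% of the others. Rsad2 was at 3.34 and 3.93 for WT-Veh, 3.07 and 1.51 for SOD1-Veh, and 1.75 and 2.52 for SOD1-Nec. The WT-Veh libraries were the 2 highest, at an adjusted p of 0.547 for SOD1-Veh and 0.567 for SOD1-Nec. For SOD1-Nec minus WT-Veh the log2 fold change of Rsad2 was -0.75, with a 95% interval, not adjusted for the number of genes, of -1.41 to -0.096. Ifitm2 was at 1.98 and 1.19 in WT-Veh and between 0.931 and 1.02 in the other 4 libraries. Its log2 fold change for SOD1-Veh minus WT-Veh was -0.70 (SE 0.33), with an adjusted p of 0.479 by edgeR's test. The 95% interval of -1.34 to -0.055 uses a normal approximation and is too narrow, as the unadjusted p of that test was 0.0517. Irf8 was at 1.51 and 1.69 for WT-Veh, 2.40 and 1.70 for SOD1-Veh, and 1.37 and 1.44 for SOD1-Nec. Its SOD1-Veh values were the 2 highest and did not pass the test (adjusted p 0.684 against WT-Veh and 0.726 against SOD1-Nec). Ifi27l2a ranged from 0.947 (SOD1-Veh 2) to 2.37 (SOD1-Nec 1) and its groups overlapped. Isg15 was at 1.64 and 0.795 for WT-Veh, 0.698 and 0.969 for SOD1-Veh, and 0.565 and 0.738 for SOD1-Nec. Both SOD1-Nec values and SOD1-Veh 1 lay below both WT-Veh values, and for SOD1-Nec minus WT-Veh the log2 fold change was -0.90 (95% interval -1.66 to -0.14) at an adjusted p of 0.552.

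The summed level of the list was lower in SOD1-G93A than in wild-type cells within each of the 5 classes that had at least 20 cells in every library. In microglia it was 32.05 and 34.1 per 10000 for WT-Veh, 24.7 and 28.2 for SOD1-Veh, and 22.1 and 20.8 for SOD1-Nec. In monocytes it was 118 and 95.9, then 91.2 and 90.9, then 84.2 and 75.9, in the same order. Neutrophils had 44.1 and 46.9, then 31.4 and 40.6, then 26.9 and 25.2. B cells had 37.9 and 37.05, then 29.1 and 31.6, then 29.6 and 30.2, and erythroid cells 20.3 and 25.5, then 17.7 and 12.3, then 12.04 and 15.8. Both WT-Veh libraries lay above all 4 SOD1-G93A libraries in each class. How often sums over other genes show such a gap was not counted. A few members made up the sums of this list, and Ly6e was the highest member in both microglia and B cells. With the highest member left out, the groups overlapped for SOD1-Veh and WT-Veh in microglia (Ly6e out), in neutrophils (Ifitm6 out) and in erythroid cells (Rsad2 out), while in monocytes (Ifitm3 out) and in B cells (Ly6e out) WT-Veh stayed above SOD1-Veh. Against SOD1-Nec, WT-Veh stayed above in microglia, monocytes and neutrophils. The groups overlapped in B cells (16.8 and 18.5 for WT-Veh, 18.5 and 15.3 for SOD1-Nec) and in erythroid cells (8.90 and 6.90 for WT-Veh, 7.29 and 7.59 for SOD1-Nec). No test was made on these sums. Over all cells the sums were 33.2 and 27.6, then 25.4 and 23.4, then 27.1 and 24.4, and the log2 ratio was -0.32 for SOD1-Veh to WT-Veh and 0.08 for SOD1-Nec to SOD1-Veh.

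**Figure D3:**
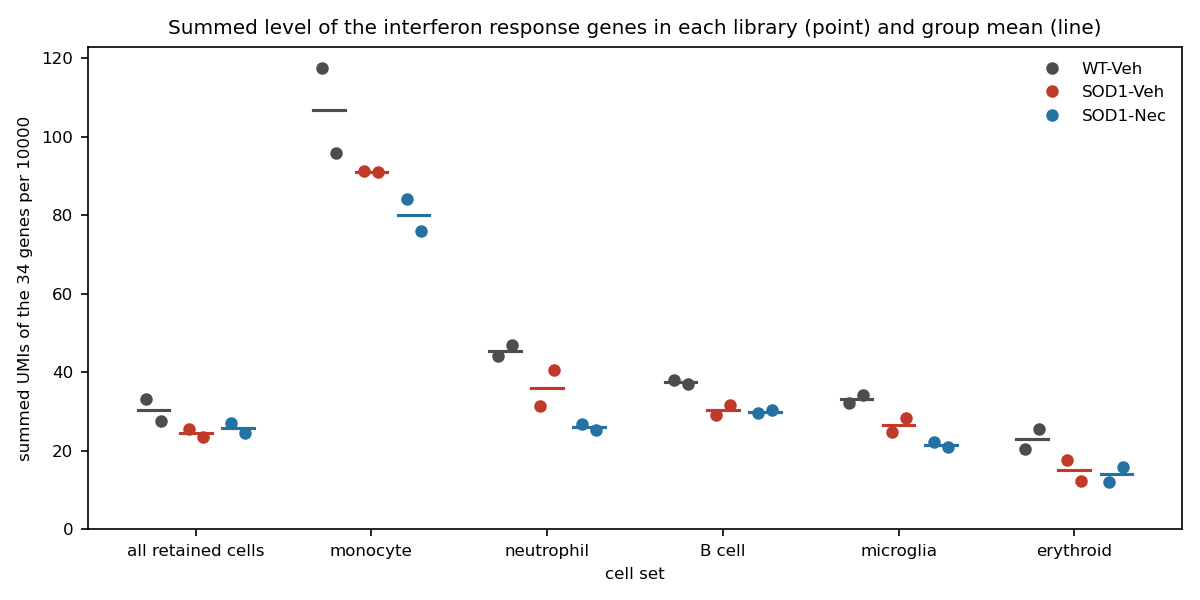
Summed level of the 34 genes in UMIs per 10000 (y axis, from 0) in each library (points) and group mean (lines), over all retained cells and in the 5 classes tested. Both WT-Veh points lie above the SOD1-Veh and SOD1-Nec points in each class and in all cells together.

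In microglia, Ly6e was lower in SOD1-G93A than in wild-type cords. It was at 15.4 and 14.2 UMIs per 10000 for WT-Veh (120 and 125 UMIs), 8.12 and 9.01 for SOD1-Veh (69 and 63 UMIs), and 5.86 and 7.14 for SOD1-Nec (48 and 72 UMIs). The 3 groups did not overlap, and 55 cells in each WT-Veh library carried the UMIs. The log2 fold change was -1.13 (SE 0.23) for SOD1-Nec minus WT-Veh, with an adjusted p of 0.000138 by edgeR's test, and -0.79 (SE 0.23) for SOD1-Veh minus WT-Veh, with an adjusted p of 0.0345. The difference between SOD1-Nec and SOD1-Veh, -0.35 with a 95% interval of -0.83 to 0.14, did not pass (adjusted p 0.595). The fall in SOD1-Nec was called in 18 of 19 alternatives, the exception being the microglial cluster led by C1qb and Ctsd taken alone (adjusted p 0.155), while that in SOD1-Veh was called in 7 of 19 and was lost, for example, with DESeq2 (adjusted p 0.101) and without each of the 4 libraries compared (adjusted p 0.0956 to 0.352).

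Irf1 had another order in microglia, with SOD1-Veh highest. It was at 1.93 and 1.02 for WT-Veh (15 and 9 UMIs), 4.23 and 2.29 for SOD1-Veh (36 and 16 UMIs), and 0.855 and 1.69 for SOD1-Nec (7 and 17 UMIs). The SOD1-Veh libraries were the 2 highest and the other groups overlapped. The log2 fold change of 1.18 (SE 0.41) for SOD1-Veh minus WT-Veh had an adjusted p of 0.112 and was not called. For SOD1-Nec minus SOD1-Veh, Irf1 fell by 1.29 on the log2 scale (SE 0.41), with an adjusted p of 0.0447. This call rested on few molecules: 1 cell of SOD1-Veh 1 held 8 of its 36 UMIs, and the adjusted p was 0.696 without that library, 0.603 without SOD1-Nec 1 and 0.323 with no filter on low counts. It was called in 6 of 18 alternatives.

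The microglia of the groups differed in make-up. Of 2 microglial clusters, the one led by Ccl3, Jun, Ccl4 and Atf3 held 63.0% and 63.2% of microglia for WT-Veh, 57.1% and 64.1% for SOD1-Veh, and 29.3% and 26.1% for SOD1-Nec. A list of 14 immediate-early genes was at 716 and 560 per 10000 for WT-Veh, 582 and 600.5 for SOD1-Veh, and 386 and 386 for SOD1-Nec microglia. Irf1 had 92 of its 100 microglial UMIs in that cluster, where it stood at 2.15 and 1.31, then 5.60 and 2.79, then 1.55 and 2.90 per 10000, and where the difference between SOD1-Nec and SOD1-Veh was -0.97 (adjusted p 0.353). The SOD1-Veh and SOD1-Nec ranges of Irf1 overlapped in that cluster. For Ly6e the groups did not overlap within that cluster: the level was 15.6 and 15.3 for WT-Veh, 7.78 and 8.73 for SOD1-Veh, and 6.19 and 6.91 for SOD1-Nec, with a log2 fold change of -1.27 (adjusted p 0.00464) for SOD1-Nec minus WT-Veh. In the other cluster, led by C1qb and Ctsd, it was at 15.02 and 10.4, then 9.14 and 9.95, then 5.57 and 7.32.

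Among the microglia as a whole, 5 members could be tested. For SOD1-Veh minus WT-Veh 1 of 5 was called (Ly6e, lower), beside 2.45% of 1551 genes. For SOD1-Nec minus SOD1-Veh 1 of 5 was called (Irf1, lower), beside 4% of genes, and for SOD1-Nec minus WT-Veh 1 of 5 (Ly6e, lower), beside 7.03%. The median log2 fold change of the 5 was -0.03, -0.35 and -0.43, against 0.02, -0.05 and 0.01 over all genes tested. Irf8 was at 5.41 and 5.91 for WT-Veh, 6.94 and 4.01 for SOD1-Veh, and 4.76 and 3.47 for SOD1-Nec. Its SOD1-Nec values lay below both WT-Veh values, by a log2 difference of -0.43 with a 95% interval of -0.98 to 0.12. Trim30a, a ubiquitin ligase, ranged from 0.823 to 2.15 and Ifi27l2a from 0.143 to 2.16, both with overlapping groups. Of the members with too few counts to test, Bst2 (tetherin, which holds budding virus at the membrane) ranged from 0.588 to 1.71 and Ifi35 from 0.297 to 0.901, both with overlapping groups. Irf9 had 5 and 6 UMIs for WT-Veh, 3 and 4 for SOD1-Veh, and 7 and 2 for SOD1-Nec. Ifitm3 had 4 and 3, then 5 and 10, then 8 and 6, in the same order. Its WT-Veh levels (0.515 and 0.341 per 10000) were the 2 lowest, on counts too small for a test.

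Markers of erythroid cells and oligodendrocytes were also read in microglia. The 15 microglial markers summed to 430 and 452 per 10000 for WT-Veh, 358 and 371 for SOD1-Veh, and 273 and 299 for SOD1-Nec microglia. The 11 erythroid markers summed to 100 and 165 per 10000 for WT-Veh, 28.5 and 53.6 for SOD1-Veh, and 471 and 358 for SOD1-Nec microglia, with haemoglobin chains making up most of it. The SOD1-Nec sums of erythroid markers thus exceeded those of the microglial markers. The 10 oligodendrocyte markers summed to 90.0 and 65.6 for WT-Veh, 101 and 102 for SOD1-Veh, and 126 and 135 for SOD1-Nec, which was highest. Of 12 neutrophil markers the sum was between 4.76 and 20.9, and of 10 monocyte markers between 1.03 and 2.88. The median depth of a microglial cell was 477 and 519 UMIs in SOD1-Nec and between 596 and 814 in the other groups. The part of these differences in the microglial results was not tested.

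In erythroid cells, Isg15 and Rsad2 were lower in SOD1-Nec than in WT-Veh. Isg15 was at 5.14 and 3.56 UMIs per 10000 for WT-Veh, 2.18 and 2.17 for SOD1-Veh, and 1.36 and 2.12 for SOD1-Nec. Rsad2 was at 11.4 and 18.6, then 11.9 and 4.58, then 4.75 and 8.25, in the same order. For both genes the SOD1-Nec values lay below the WT-Veh values, and for Isg15 the SOD1-Veh values did too. Of the 3 members tested, 2 were called for SOD1-Nec minus WT-Veh, beside 3.03% of 1319 genes, with a log2 fold change of -1.84 (SE 0.34, adjusted p 0.00241) for Isg15 and -1.76 (SE 0.37, adjusted p 0.00605) for Rsad2. No member was called for SOD1-Veh minus WT-Veh, beside 0.227% of genes, or for SOD1-Nec minus SOD1-Veh, beside 2.58%. In these comparisons 2 and 0 of the 3 had an unadjusted p below 0.05, beside 8.26% and 15.8% of genes. DESeq2 called none in either, and its share over all genes is not given.

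Several values moved with this result. The scaling factors of the fit were 1.31 and 1.30 in SOD1-Nec and between 0.749 and 0.960 in the other erythroid sums, and without them the log2 fold changes were -1.24 for Isg15 and -1.11 for Rsad2, both still called. Rsad2 was lost with DESeq2 (adjusted p 0.26) and with up to 40% mitochondrial UMIs (adjusted p 0.113), and Isg15 without SOD1-Nec 1. Haemoglobin chains were 3694 and 3880 per 10000 in SOD1-Nec erythroid cells and between 5078 and 5820 in the other libraries. Per 1000 haemoglobin UMIs, Rsad2 was at 2.19 and 3.19 for WT-Veh, 2.17 and 0.901 for SOD1-Veh, and 1.29 and 2.13 for SOD1-Nec, and Isg15 was at 0.988 and 0.612, then 0.397 and 0.428, then 0.367 and 0.546. On that scale the SOD1-Nec values again lay below the WT-Veh values in the whole class, by a narrower margin, but not within either erythroid cluster. In the haemoglobin-rich cluster Rsad2 was at 2.43 and 3.57 for WT-Veh and 1.52 and 3.15 for SOD1-Nec, and Isg15 at 0.609 and 0.670, then 0.277 and 0.744. In the cluster led by Hemgn and Car1 Rsad2 was at 1.82 and 0.333, then 1.05 and 0.609, and Isg15 at 1.57 and 0.167, then 0.458 and 0.251. Of the 78 Isg15 UMIs of WT-Veh 1, 22 came from 1 cell. In the haemoglobin-rich cluster alone Rsad2 was called (log2 fold change -1.43, adjusted p 0.0428) and Isg15 was not (-1.31, adjusted p 0.088). In the cluster led by Hemgn and Car1, Rsad2 was at 6.98 and 0.934 per 10000 for WT-Veh and 3.22 and 1.74 for SOD1-Nec, and Isg15 at 6.00 and 0.467, then 1.40 and 0.717. There the groups overlapped, with WT-Veh 1 highest and WT-Veh 2 lowest for both genes. The part of erythroid maturity and of free RNA in this difference was not tested. In barcodes with under 200 genes, outside the filter, both genes were higher in SOD1-Nec per 10000 UMIs. Rsad2 was at 2.92 and 4.29 per 10000 for WT-Veh and 5.57 and 6.01 for SOD1-Nec there. Isg15 was at 0.446 and 0.620, then 0.837 and 0.793.

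**Figure D4:**
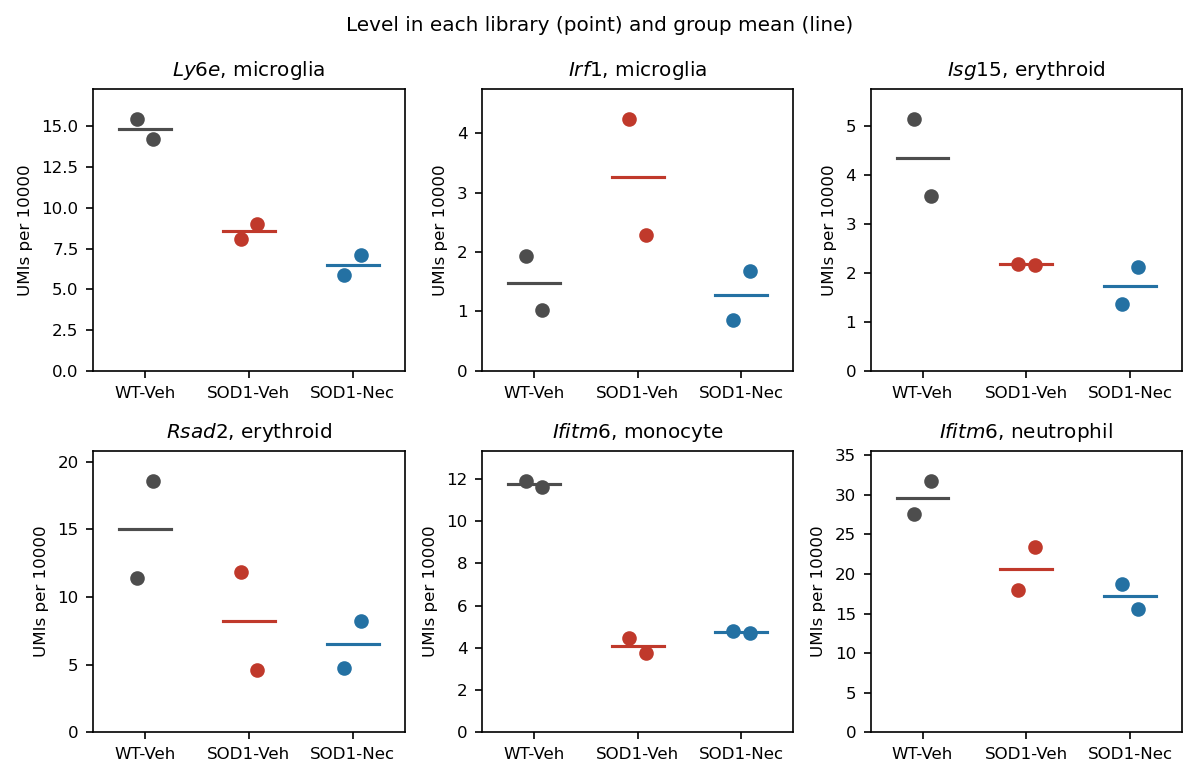
Level in UMIs per 10000 (y axis, from 0) in each library (points) and group mean (lines) of Ly6e and Irf1 in microglia, Isg15 and Rsad2 in erythroid cells, and Ifitm6 in monocytes and neutrophils. WT-Veh lies above the other groups for Ly6e, Isg15 and Ifitm6, and SOD1-Veh is highest for Irf1.

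In monocytes, Ifitm6 was lower in SOD1-Veh than in WT-Veh. It was at 11.9 and 11.6 UMIs per 10000 for WT-Veh (58 and 30 UMIs), 4.46 and 3.74 for SOD1-Veh (11 and 7 UMIs), and 4.80 and 4.71 for SOD1-Nec (27 and 23 UMIs). Both WT-Veh libraries exceeded the other 4 more than 2-fold. Ifitm6 was 1 of 7 members called for SOD1-Veh minus WT-Veh, beside 1.53% of 785 genes, with a log2 fold change of -1.51 (SE 0.38) and an adjusted p of 0.0379. For SOD1-Nec minus WT-Veh the change was -1.22 (SE 0.31) with an adjusted p of 0.139, so that 0 of 7 were called beside 0.127% of genes, and for SOD1-Nec minus SOD1-Veh 0 of 7 were called beside 1.15%. Unadjusted p-values below 0.05 numbered 2, 3 and 0 of 7 for SOD1-Veh minus WT-Veh, SOD1-Nec minus WT-Veh and SOD1-Nec minus SOD1-Veh. The shares of all genes at that level were 7.64%, 9.55% and 11.3% in the same order. DESeq2 did not call Ifitm6 for SOD1-Veh minus WT-Veh (adjusted p 1), nor did edgeR without any one of the 4 libraries compared (adjusted p 0.0946 to 0.244). Neutrophil markers, whose cells carry more Ifitm6, summed to 17.1 and 39.5 per 10000 in WT-Veh monocytes, 8.11 and 10.2 for SOD1-Veh, and 25.3 and 34.8 for SOD1-Nec. These markers were lowest in SOD1-Veh. In SOD1-Nec they lay within the WT-Veh range, while Ifitm6 there was at 4.80 and 4.71. Erythroid markers were at 321 and 141, then 37.3 and 40.7, then 252 and 225. The part of both marker lists in the result was not tested.

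Other members in monocytes did not pass. Ifitm3, the most abundant, was at 34.9 and 27.5 for WT-Veh, 31.2 and 38.0 for SOD1-Veh, and 23.7 and 24.8 for SOD1-Nec. The SOD1-Nec libraries were the 2 lowest, with a log2 difference of -0.42 (SE 0.24) from SOD1-Veh and an adjusted p of 0.508. Ifitm2 was at 13.4 and 10.8, then 5.27 and 9.63, then 5.52 and 6.75. Its WT-Veh libraries were the 2 highest (adjusted p 0.582 for SOD1-Veh and 0.376 for SOD1-Nec). Irf7 had 3 and 1 UMIs for WT-Veh, 4 and 2 for SOD1-Veh, and 5 and 2 for SOD1-Nec monocytes. Zbp1 had 10 and 0, then 2 and 1, then 1 and 1, and the 10 lay in 6 cells of WT-Veh 1. Over all cells Zbp1 had 12 and 6 UMIs for WT-Veh, 3 and 3 for SOD1-Veh, and 2 and 3 for SOD1-Nec. It had too few counts to be tested.

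Members with fewer counts are given as UMIs over all cells. Mx1, a dynamin-like GTPase, had 8 and 7 for WT-Veh, 2 and 4 for SOD1-Veh, and 0 and 2 for SOD1-Nec. Oas1a, which makes the activator of RNase L, had 10 and 7, then 6 and 5, then 6 and 4, and Gbp2, a guanylate-binding protein, 4 and 2, then 3 and 3, then 12 and 7. In raw UMIs, not scaled for depth, the WT-Veh libraries held the most Mx1 and Oas1a. The SOD1-Nec libraries held the most Gbp2, of which 9 of 31 UMIs were in ependymal cells. For Oas1a, WT-Veh 2 had 7 UMIs in 503390 and SOD1-Veh 1 had 6 in 429821, which are about equal shares. None of the 3 could be tested, and a count of 0 allows up to 3.

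Neutrophils and B cells gave no call among the members. In neutrophils Ifitm6 was at 27.5 and 31.8 for WT-Veh, 18.0 and 23.4 for SOD1-Veh, and 18.8 and 15.6 for SOD1-Nec. As in monocytes, both WT-Veh values exceeded the other 4, here with log2 fold changes of -0.61 (SE 0.29, adjusted p 0.739) and -0.77 (SE 0.29, adjusted p 0.232). Of 3 members tested 0 were called in each comparison, beside 0.119% of 842 genes for SOD1-Veh minus WT-Veh, 0% for SOD1-Nec minus SOD1-Veh and 0.119% for SOD1-Nec minus WT-Veh. In that order 0, 0 and 2 had an unadjusted p below 0.05, beside 6.53%, 11.5% and 16.9% of genes. The neutrophil cluster led by Ngp and Camp held 45.7% and 54.1% of neutrophils for WT-Veh, 33.3% and 32.0% for SOD1-Veh, and 69.6% and 83.3% for SOD1-Nec. Ifitm6 was itself among the leading genes of that cluster by fold over other cells. The part of this make-up in the Ifitm6 levels was not tested. In B cells 0 of 4 members were called, beside 0.195%, 0.488% and 0.195% of 1025 genes for SOD1-Veh minus WT-Veh, SOD1-Nec minus SOD1-Veh and SOD1-Nec minus WT-Veh. In that order 0, 3 and 0 had an unadjusted p below 0.05, beside 9.27%, 11.3% and 7.51% of genes. DESeq2 called none in either class, and its share over all genes is not given. Ly6e in B cells was at 21.1 and 18.5, then 14.5 and 17.6, then 11.1 and 14.96. Ifi27l2a was at 4.06 and 3.41, then 1.86 and 1.79, then 4.11 and 3.55, and Ifi203 at 3.77 and 4.39, then 3.03 and 1.14, then 4.45 and 3.99. For both genes the SOD1-Veh libraries were the 2 lowest, with an adjusted p of 0.242 for SOD1-Nec minus SOD1-Veh.

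A count per cell was made for the 12 genes of the inducible core after each cell was thinned to 500 UMIs. In microglia 19 of 385 cells deep enough had a core UMI, or 4.94% (95% exact binomial interval 3.00% to 7.60%, counting error only), with 252 cells left out. The libraries gave 6.67% and 4.35% for WT-Veh, 3.12% and 3.64% for SOD1-Veh, and 7.94% and 4.05% for SOD1-Nec, and their intervals overlapped. Without thinning the share was 5.02%. Oligodendrocytes, which should show little of the response, were at 1.36% (interval 0.165% to 4.83%), with a median depth of 1114 UMIs against 825 in microglia. The 2 intervals overlapped, which is not a test of the difference, and cells are not replicates. Whether the microglial share exceeds that background was not tested. Monocytes were at 10.8% (6.51% to 16.5%), endothelial cells at 13.8% (6.15% to 25.4%) and erythroid cells at 29.8% (25.2% to 34.7%), the last falling to 1.06% once Isg15 and Rsad2 were left out.

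Cells with a broad response were rare and were not confined to one group. Over all 3331 cells, 20 carried 2 or more of the 10 core genes other than Isg15 and Rsad2, and 7 carried 3 or more. The 20 cells were 5 of 508 and 4 of 549 cells for WT-Veh, 2 of 395 and 5 of 430 for SOD1-Veh, and 3 of 658 and 1 of 791 for SOD1-Nec. The 2 cells with the most were microglia of the cluster led by Ccl3, each with 7 core genes and 15 of the 34 members. One was in WT-Veh 2, with Ifit2, Ifit3, Isg15, Rsad2, Usp18, Irf7 and Mx1, and the other in SOD1-Veh 2, with Ifit1, Ifit3, Isg15, Oasl1, Oasl2, Irf7 and Mx1. They held 11 and 6 of the 18 Ifit3 UMIs in microglia. An endothelial cell of SOD1-Nec 1, an erythroid cell of SOD1-Veh 2 and a monocyte of SOD1-Veh 1 followed with 5 core genes each.

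Genes of the interferon pathway outside the list were read from the same fits. Of 23 signalling genes in the tables (receptors, kinases, STAT and IRF proteins and nucleic acid receptors), 17 were tested over all cells and 0 were called in each comparison, and 0, 1 and 1 had an unadjusted p below 0.05, beside 0.829%, 0.548% and 0.0401% of all genes called and 10.4%, 7.06% and 8.46% at that unadjusted level. In microglia 8 were tested, and 2 of them fell in SOD1-Nec minus WT-Veh, beside 7.03% of 1551 genes called in either direction. Ifngr1, the ligand-binding chain of the interferon gamma receptor, was at 5.41 and 5.12 per 10000 for WT-Veh, 4.35 and 5.15 for SOD1-Veh, and 2.69 and 2.58 for SOD1-Nec (log2 fold change -0.95, SE 0.31, adjusted p 0.0395). Tlr7, an endosomal receptor of single-stranded RNA, was at 3.48 and 2.73, then 1.53 and 2.43, then 1.22 and 1.29 (-1.24, SE 0.41, adjusted p 0.0416). For both genes the SOD1-Nec libraries were the 2 lowest. Ifngr1 was called in 8 of 19 alternatives and Tlr7 in 6 of 18, and both were lost with DESeq2 (adjusted p 0.161 and 0.215) and without any one of the 4 libraries compared (adjusted p 0.171 to 0.270 for Ifngr1 and 0.0837 to 0.290 for Tlr7). Ifnar1 and Ifnar2, the chains of the type I receptor, had 22 and 78 UMIs in microglia. Of 25 further induced genes, 20 were tested over all cells with 0 called and 3, 2 and 1 at an unadjusted p below 0.05, beside the same shares of all genes, and 4 in microglia with 0 called and 0, 1 and 0 at that level, beside 12%, 14.1% and 20.7% of genes at that level. In erythroid cells Isg20, an exonuclease of RNA, was the 1 tested. It was at 7.78 and 8.02, then 6.63 and 6.75, then 6.87 and 5.24, with the WT-Veh libraries the 2 highest. It was called for SOD1-Nec minus WT-Veh (-0.95, SE 0.26, adjusted p 0.0423), beside 3.03% of genes. This call rested on the scaling factors of the erythroid fit: without them the log2 fold change of Isg20 was -0.32, with an adjusted p of 0.525. It was also lost with DESeq2 (adjusted p 0.218) and with a library left out (adjusted p 0.345 without WT-Veh 2, and 0.237 and 0.613 without each SOD1-Nec library in turn), and was called in 8 of 17 alternatives.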

How the data were processed

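Drop-seq libraries of mouse spinal cord were analysed from 6 tables of UMI counts per gene and barcode, which the authors deposited. Build mm9 is named per the submitters' processing notes, and the aligner and the annotation version were not given in the sources used here. Members and lists were chosen with earlier results of these data known. Barcodes with at least 200 genes and at most 20% mitochondrially encoded UMIs were kept, doublets called with scrublet in scanpy 1.11.5 were removed, and cells were clustered (2000 variable genes without the interferon genes, 30 components, 15 neighbours, Leiden resolution 1) and named from marker genes. One barcode sequence occurred in 2 libraries. Counts were summed per library, over all cells and in the 5 classes with at least 20 cells in each library, and tested across all genes with edgeR 4.0.16 (R 4.3.3; TMM factors, filterByExpr, quasi-likelihood F test, 3 groups in 1 fit, Benjamini-Hochberg adjusted p below 0.05 called). The script was tested on simulated data. Alternatives were DESeq2 1.42.0, RLE factors, no filter, the replicate number as a block, only the groups compared, each library left out, doublets kept, 400 genes, 40% mitochondrial UMIs, resolution 0.5 and interferon genes kept in the clustering, and after seeing the data library totals without TMM factors, single clusters and haemoglobin as the scale. Depth was between 429821 and 650663 UMIs of shared genes in retained cells per library, and between 69908 and 100862 in microglia. Intervals are 95%. Those of log2 fold changes use the standard error of the edgeR fit and a normal approximation, which makes them too narrow for 6 libraries. Those of cell shares are exact binomial and cover counting error only. Values in each library are given for members called in any class, the 8 with the highest levels in microglia and over all cells, the 3 with the smallest p in each comparison there, and Zbp1, Irf7, Isg15, Ifitm3 and Irf8. Other genes named were chosen after their values were seen.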

Additional observations from a re-analysis of the deposited data

Results flagged for a closer look

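The ratio of mean Ly6e levels per 10000 UMIs had opposite signs in different classes, with the libraries of the groups compared not overlapping. Ly6e was flagged for this pattern, and the share of all genes that show it was not counted. For SOD1-Nec against SOD1-Veh, the log2 ratio of mean levels was 0.611 in erythroid cells, -0.398 in microglia and -0.204 in monocytes. For SOD1-Nec against WT-Veh it was 0.357 in erythroid cells, -0.605 in B cells and -1.19 in microglia. Of these, Ly6e was called for SOD1-Nec minus WT-Veh in microglia and did not pass the test in the others. In erythroid cells the fitted log2 fold changes, which use TMM factors, were 0.15 for SOD1-Nec minus SOD1-Veh and -0.17 for SOD1-Nec minus WT-Veh, so that the latter had the other sign. The difference between classes was not tested.

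Barcodes outside the filter also carried the members. In barcodes of at least 200 genes with over 20% mitochondrial UMIs, the summed level was 2.19 and 1.01 per 10000 in WT-Veh and 4.75 and 3.55 in SOD1-Nec, so that the lowest SOD1-Nec library lay above both WT-Veh libraries. In barcodes with under 200 genes it was 6.27 and 7.25 for WT-Veh, 4.02 and 3.82 for SOD1-Veh, and 10.4 and 9.68 for SOD1-Nec. Rsad2 gave 5.57 and 6.01 of the SOD1-Nec values there, and haemoglobin chains were at 3957 and 5750 per 10000 in those barcodes, against 3974 and 3591 in WT-Veh.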

How the results depend on the processing

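Over all cells 0 members were called in each comparison and under each alternative run. In microglia, the 1 call for SOD1-Veh minus WT-Veh went to 0 with DESeq2, no filter, the replicate block, only the 2 groups, at least 400 genes and up to 40% mitochondrial UMIs. The 1 call for SOD1-Nec minus SOD1-Veh went to 0 with DESeq2, no filter, the replicate block, only the 2 groups, the interferon genes kept and 400 genes. The 1 call for SOD1-Nec minus WT-Veh became 2 with no filter (Ifitm1 added, 15 UMIs in SOD1-Nec 2, of which 11 were in 1 cell). In the other 4 classes, the 1 call for SOD1-Veh minus WT-Veh went to 0 with DESeq2, no filter, only the 2 groups and resolution 0.5, and the 2 for SOD1-Nec minus WT-Veh to 1 with DESeq2, no filter and 40% mitochondrial UMIs. With a library left out, these counts ranged from 0 to 1, 0 to 1, 1 to 1, 0 to 1 and 1 to 2, and that for SOD1-Nec minus SOD1-Veh in the other classes from 0 to 1 (Rsad2 without SOD1-Veh 2, adjusted p 0.0237 by edgeR). Rsad2 was also called for SOD1-Veh minus WT-Veh without WT-Veh 1 or SOD1-Veh 1. The causes were not tested, and the share of all genes called under each of these settings is not given.

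Summed levels kept their sign with each library left out, except over all cells for SOD1-Nec to SOD1-Veh: all cells -0.45 to -0.18, -0.0002 (without SOD1-Nec 1) to 0.15 and -0.37 to -0.10, microglia -0.42 to -0.23, -0.39 to -0.20 and -0.67 to -0.58. Without Ly6e the microglial log2 ratio was -0.0299 for SOD1-Veh to WT-Veh and -0.29 for SOD1-Nec to WT-Veh. Over all cells SOD1-Nec to SOD1-Veh became 0.22 with 40% mitochondrial UMIs and -0.21 with the classes weighted alike, and SOD1-Nec to WT-Veh became -0.52 with the latter.

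Replicate numbers are not stated to pair libraries. Deviations of same-numbered libraries correlated at -0.18, -0.257 and 0.175 over all cells, so no pairing was assumed. The tables of replicate 1 list 18169 genes each and those of replicate 2 list 18650. With the replicate block the microglial counts were 0, 0 and 1. With at least 400 genes no class other than microglia had enough cells. For 14 of the 34 members depth allowed no test over all cells.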
